A study of Homo sapiens with 3 samples.

Results

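Binding of the transcription factors SOX4 and STAT6 was examined at 8 sensory transient receptor potential (TRP) channel genes, TRPA1, TRPM8 and TRPV1 to TRPV6, among 20056 protein-coding genes. Hep3B, a human hepatocellular carcinoma line, was profiled with an anti-SOX4 antibody, an anti-STAT6 antibody and IgG, an antibody with no chromatin target that gives the background, with 1 library each. The labels name no treatment and no genetic change in these cells. The libraries were made by CUT&RUN, in which a nuclease tethered to the antibody releases the DNA around bound sites, here from chromatin that the study describes as fixed and fragmented. The authors called peaks, regions with more reads than in IgG, for SOX4 and for STAT6 separately. The names of the peaks show that 1 IgG library was the control of both. The channels were chosen by family membership, after the peak counts at several of them had been seen, and a peak was assigned to a channel when it overlapped the gene or the 1000 bp on either side (hg38). By this rule the channels took 34 of 4513 peaks from the SOX4 list and 44 of 1078 from the STAT6 list. All counts and fold enrichments at the channels are therefore descriptions of these libraries, and no p-value was computed.

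TRP channels are cation channels of the cell membrane. TRPA1 opens to irritants such as mustard oil, TRPM8 to cold and menthol, and TRPV1 to heat and capsaicin. TRPV2, TRPV3 and TRPV4 belong to the same vanilloid branch and respond to heat, with TRPV4 also a sensor of osmotic swelling, while TRPV5 and TRPV6 are calcium-selective channels of epithelia in kidney and intestine. They are best known from sensory nerve endings and epithelia rather than from liver cells, and their transcripts in Hep3B were not analysed here.

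Of the 8 channels, 5 had a promoter window in the RefSeq promoter table of GRCh38.p14, which spans 250 bases before to 50 bases after a transcription start, with 11 windows in all. TRPA1, TRPV2 and TRPV4 had no window, so their promoters could not be examined this way. In the windows present, peaks overlapped only the 2 of TRPV1, which lies on the minus strand. Both sequences are shown because a STAT6 summit, the point of highest signal in a peak, fell inside each. The capitals mark the bases within 10 bases of that summit, as far as the window reaches. The first window is chr17:3596993-3597292 and the second is chr17:3595782-3596081, both written 5′ to 3′ on the minus strand.
TRPV1 upstream promoter: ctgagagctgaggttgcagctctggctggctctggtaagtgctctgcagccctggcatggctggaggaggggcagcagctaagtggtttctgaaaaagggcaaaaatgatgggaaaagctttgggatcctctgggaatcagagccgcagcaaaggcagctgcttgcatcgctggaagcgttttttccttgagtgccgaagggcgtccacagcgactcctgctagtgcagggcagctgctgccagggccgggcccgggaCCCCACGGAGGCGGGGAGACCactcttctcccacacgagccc
TRPV1 downstream promoter: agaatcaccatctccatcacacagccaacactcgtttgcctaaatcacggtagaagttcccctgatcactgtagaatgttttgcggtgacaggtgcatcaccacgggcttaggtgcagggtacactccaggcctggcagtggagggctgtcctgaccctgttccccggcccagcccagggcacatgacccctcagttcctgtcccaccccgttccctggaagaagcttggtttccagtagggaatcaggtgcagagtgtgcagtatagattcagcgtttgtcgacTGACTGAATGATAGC

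In the upstream window the STAT6 summit, at 3597024, lay 18 bp from the transcription start at 3597042, and the STAT6 and SOX4 peaks each covered 100% of the window. The nearest SOX4 summit was 1283 bp from that start. In the downstream window the STAT6 summit lay 45 bp from the start at 3595831. The nearest SOX4 summit, 72 bp from that start, lay just outside the window. STAT6 covered 64.7% of this window and SOX4 100%. Over the whole table of 35116 windows, a SOX4 peak overlapped 0.555% and a STAT6 peak 0.31%. The single SOX4 peak over both windows, from 3594940 to 3597777, thus held a STAT6 peak at each of these 2 starts, while the 5′ end of the whole gene, at 3609411, lay under another SOX4 peak.

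The windows were searched on both strands for letters typical of the factors. TTCNNNNGAA, the spacing that STAT6 prefers, occurred once, as ttccctggaa from base 212 of the downstream TRPV1 window, and is found in 6.44% of all windows. TTCNNNGAA, the shorter STAT spacing, was found in neither TRPV1 window, against 7.66% of all. The SOX-type words AACAAT and AACAAAG were also in neither, against 10.1% and 5.20% of all windows. AACAAT and AACAAAG share their opening letters, but no place in a sequence can match both in full. The windows of TRPM8, TRPV3, TRPV5 and TRPV6 held 1 match in all, an AACAAT word in a TRPM8 window without a peak.

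SOX4 and STAT6 peaks were concentrated in TRPA1, TRPV1 and TRPV4. TRPA1, the irritant receptor, held 13 SOX4 and 21 STAT6 peaks. TRPV4, the osmotic and warmth sensor, held 10 and 12, and TRPV1, the capsaicin receptor, held 9 and 11. TRPV2 and TRPV3 held 1 SOX4 peak each and no STAT6 peak, and TRPM8, TRPV5 and TRPV6 held no peak of either list. A SOX4 peak was thus found at 5 of 8 channels, a STAT6 peak at 3 and both at 3. Among all protein-coding genes, 6.34% had a SOX4 peak, 1.08% a STAT6 peak and 1.03% both. Since the channels were picked with such counts known, nothing is read from this contrast.

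**Figure D1:**
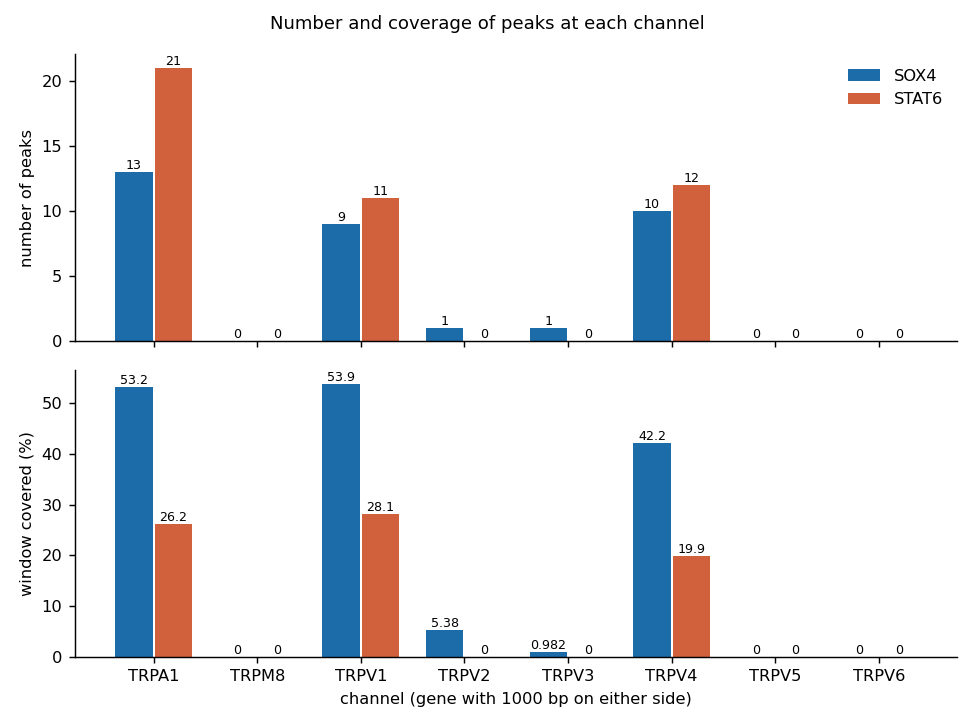
Number of SOX4 and STAT6 peaks (upper bars) and the share of each channel window covered by them in percent (lower bars) for the 8 channels, 1 library per antibody. TRPA1, TRPV1 and TRPV4 hold 9 to 13 SOX4 and 11 to 21 STAT6 peaks, and the other channels 1 or 0.

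Over all the channels, gene length did not order the peak counts. TRPM8, the longest at 102150 bp, had no peak, while TRPV1 with 43966 bp had 20 peaks over both lists. Among TRPV1, TRPV4 with 50312 bp and TRPA1 with 68761 bp, the counts of both lists did rise with length. Per 10 kb of window, TRPA1 held 1.84 SOX4 peaks, TRPV1 1.96 and TRPV4 1.91, so that these channels differed little in density. For STAT6 the densities were 2.97, 2.39 and 2.29 peaks per 10 kb.

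The peaks covered a large part of these genes. SOX4 peaks covered 53.2% of the TRPA1 window, 53.9% of the TRPV1 window and 42.2% of the TRPV4 window. STAT6 peaks, which were narrower, covered 26.2%, 28.1% and 19.9%. The SOX4 peak of TRPV2 covered 5.38% of its window, and that of TRPV3 covered 0.982%. Over the 8 windows together, SOX4 peaks covered 22.1% and STAT6 peaks 10.7%.

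Some peaks crossed the ends of TRPA1, TRPV1 and TRPV4, but farther outside these genes peaks were sparse. Stretches as long as the gene, starting 5000 bp beyond either end, held no peak of either list for TRPA1 and TRPV4. For TRPV1 they held 1 SOX4 peak, the weak one in TRPV3, which covered 0.55% of them. The nearest SOX4 peak beyond the TRPA1 window was 112 kb from the gene, and the nearest STAT6 peak 115 kb. For TRPV4 these distances were 215 kb and 22785153 bp. Beyond TRPV1, the nearest STAT6 peak was 63.5 kb away, at P2RX5, an ATP-gated channel.

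**Figure D2:**
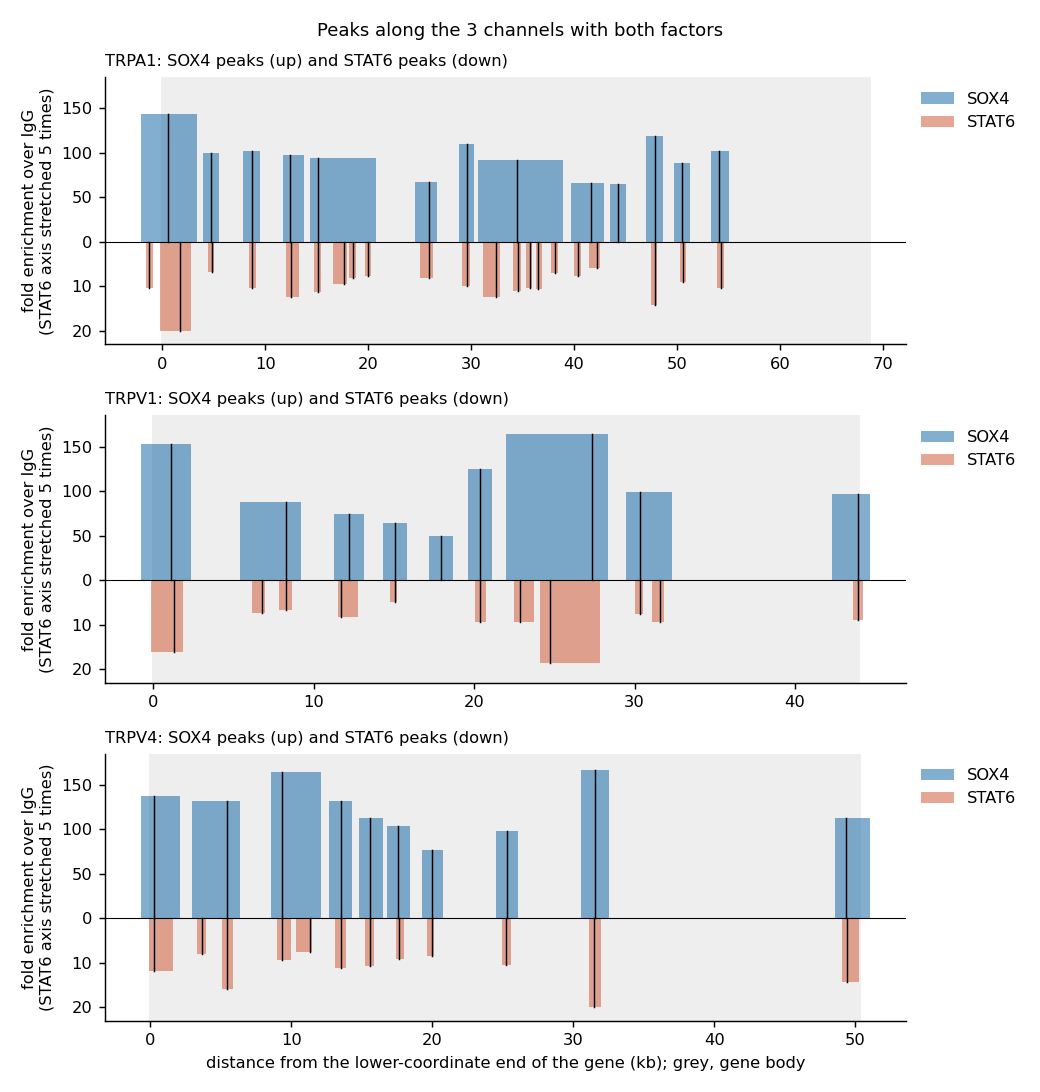
SOX4 peaks (up) and STAT6 peaks (down) along TRPA1, TRPV1 and TRPV4, by distance in kb from the gene end with the lower coordinate. Bar height is the fold enrichment over IgG, with the STAT6 axis stretched 5 times, bar width is the peak and a black line its summit. Every STAT6 peak lies under a SOX4 peak, and each gene has a long stretch without peaks toward its higher-coordinate end.

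TRPA1 on chromosome 8, from 72021250 to 72090010, carried the most peaks. SOX4 fold enrichment over IgG was 65.3 at the lowest peak, 97.1 at the median and 143 at the highest. The highest peak, from 72019215 to 72024602, spanned the lower-coordinate end of the gene with its summit 500 bp inside and ranked 92 of 4513 by fold enrichment. STAT6 fold enrichment was 5.88 at the lowest, 10.3 at the median and 20.04 at the highest. The highest STAT6 peak, from 72021026 to 72024054, lay within that same SOX4 peak and ranked 24 of 1078. Both factors thus had their highest TRPA1 peak at the lower-coordinate end of the gene. Whether this is its 5′ or 3′ end was not determined here.

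The widest SOX4 peaks of any channel lay in the TRPA1 gene body. One, from 72051894 to 72060136, was 8243 bp wide with a fold enrichment of 91.4 and held 5 STAT6 peaks with fold enrichments of 7.03 to 12.4. Another, from 72035550 to 72042044, was 6495 bp wide with a fold enrichment of 94.0 and held 4 STAT6 peaks of 7.63 to 11.2. Both were lower than the peak at the end of the gene, which was 5388 bp wide.

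The remaining TRPA1 peaks ran along the gene body up to 72076323. The 13687 bp at the higher-coordinate end, 19.9% of the gene, held no SOX4 peak. Neighbouring SOX4 summits were 2582 bp apart at the closest and 3686 bp at the median, with the widest gap at 10840 bp. STAT6 summits were 803 bp apart at the closest and 2696 bp at the median. One STAT6 peak, from 72019674 to 72020350, ended 900 bp outside the gene and reached only the outer part of the 1000 bp margin. Its summit lay 1266 bp from the gene, beyond the margin, and it was the only counted peak at any channel that did not touch the gene itself. The closest summits of the factors were 9 bp apart, in the pair with SOX4 fold enrichment of 102 and STAT6 fold enrichment of 10.3. MSC-AS1, a long noncoding RNA gene that overlaps TRPA1 by 35063 bp, shared 8 of the SOX4 and 13 of the STAT6 peaks, and held 0 peaks of either list elsewhere. The peaks in the shared stretch cannot be assigned to one of these genes.

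TRPV1 on chromosome 17, from 3565446 to 3609411, held peaks at both ends. SOX4 fold enrichment was 49.6 at the lowest, 96.6 at the median and 164 at the highest. The highest peak, from 3587427 to 3593787, lay inside the gene and ranked 42. STAT6 fold enrichment was 4.87 at the lowest, 8.84 at the median and 18.7 at the highest, and the highest STAT6 peak, from 3589520 to 3593282 at rank 40, lay within that SOX4 peak although the summits were 2591 bp apart. The STAT6 values at TRPV1 reached lower than those at TRPA1 and TRPV4, whose lowest were 5.88 and 7.59, but the ranges of the channels overlapped.

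The peak pairs at the TRPV1 ends differed in how close their summits were. At the higher-coordinate end, which is the 5′ end on the minus strand, the SOX4 summit lay 12 bp and the STAT6 summit 11 bp inside the end of the gene, so that they were 1 bp apart, the closest pair at any channel. The SOX4 fold enrichment there was 96.6 and the STAT6 fold enrichment 8.84. This peak pair also overlapped SHPK, a sugar kinase gene that shares 1172 bp with TRPV1 and held no other peak. At the opposite end, SOX4 fold enrichment was 153 and STAT6 fold enrichment 16.1, with summits 171 bp apart. Inside the gene, the SOX4 peaks between these ends had fold enrichments, in order along the chromosome, of 87.4, 74.0, 63.7, 49.6, 125, 164 and 98.8. The lowest of these lay in the gene body, 2 peaks before the highest. Neighbouring SOX4 summits were 3450 bp apart at the median and STAT6 summits 3396 bp. Between the promoter peaks described above and the peak at the 5′ end of the gene, 9992 bp held no SOX4 peak, 22.7% of the gene.

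TRPV4 on chromosome 12, from 109783087 to 109833398, had the highest median. SOX4 fold enrichment was 76.9 at the lowest, 122 at the median and 166 at the highest, the largest SOX4 value at any channel. That peak, from 109813642 to 109815615 at rank 35, held the highest STAT6 peak of the gene, from 109814221 to 109815026 with a fold enrichment of 19.9 at rank 25, and their summits were 41 bp apart. STAT6 fold enrichment was 7.59 at the lowest and 10.5 at the median. In contrast to TRPA1, the highest peaks of both factors lay inside the gene body.

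The first 7 SOX4 peaks of TRPV4 formed a run from 109782462 to 109803815, and their fold enrichments were, in order along the chromosome, 138, 131, 165, 131, 112, 104 and 76.9. The STAT6 peaks in the run had fold enrichments of 7.59 to 15.8, and the closest summits of the gene, 5 bp apart, lay at the lowest SOX4 peak, the last of the run. Of the TRPV4 peaks, 7 SOX4 and 9 STAT6 summits lay in the lower-coordinate 50% of the gene and 3 of each in the rest. A stretch of 16003 bp, 31.8% of the gene, held no SOX4 peak before the last one, from 109831619 to 109834131. This last SOX4 peak had a fold enrichment of 113 and the STAT6 peak inside it 14.2. Both overlapped MIR4497, a microRNA gene that spans the end of TRPV4 by 51 bp. The mature miR-4497, at chr12:109833350-109833366 on the plus strand, is shown because it lies wholly under both peaks, with its seed (bases 2 to 8) in capitals. No small RNA was measured in this series.
hsa-miR-4497: cUCCGGGAcggcugggc

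TRPV2 and TRPV3 had lower peaks. On chromosome 17, the TRPV2 peak between 16431645 and 16432905 showed 35.2-fold SOX4 enrichment and ranked 676, with its summit 4770 bp inside the higher-coordinate end of the gene. The nearest STAT6 peak was 32.9 kb from TRPV2. The TRPV3 peak, between 3518364 and 3518847, was enriched 3.46-fold at rank 3694 and a −log10 q of 3.64, the lowest of the 34. TRPV3 lies next to TRPV1, and the peak spanning the nearer end of TRPV1 was only 6887 bp away with a SOX4 fold enrichment of 153. This peak is counted at TRPV1, and no other peak beyond a channel's own window came as close to that channel.

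No peak was detected at TRPM8, TRPV5 or TRPV6. The nearest peaks to TRPM8 were 143 kb away for SOX4, with a fold enrichment of 168, and 144 kb for STAT6. TRPV5 and TRPV6, neighbours on chromosome 7 and close relatives of each other, had their nearest SOX4 peak at 242 kb and 205 kb, the same peak with a fold enrichment of 8.57. The nearest STAT6 peak was 8114 kb from TRPV5 and 8162 kb from TRPV6. The read depth is unknown, so how weak a signal would have been missed at these genes cannot be given.

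To describe how the factors were paired at the channels, peaks were called paired when they overlapped by at least 1 bp. All 44 STAT6 peaks were paired with a SOX4 peak (100%, Wilson 95% interval 92.0% to 100%), against 78.7% of the whole STAT6 list. Of the SOX4 peaks, 30 of 34 were paired (88.2%, Wilson 95% interval 73.4% to 95.3%), against 14.2% of the whole SOX4 list. The lists have their IgG control in common, and the channels were selected from results that included this overlap, so the shares are given without a test. The intervals treat peaks as independent, although 9 SOX4 peaks held several STAT6 peaks each. If the overlap had to span 50% or more of each peak, 7 of the 34 SOX4 peaks were paired, since SOX4 peaks were wider.

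All 44 STAT6 peaks lay wholly inside a SOX4 peak. The SOX4 peak extended beyond the STAT6 peak by at least 261 bp on the lower-coordinate side and by at least 347 bp on the other. In the whole lists 826 of 850 pairs were nested in this way. Of the paired SOX4 peaks, 21 held 1 STAT6 peak, 7 held 2, and single peaks in TRPA1 held 4 and 5. Width went with this number, which is partly given by geometry, because several separate STAT6 peaks need a wider SOX4 peak to hold them. The 21 SOX4 peaks with 1 partner were 1474 bp to 3073 bp wide with a median of 1657 bp. The 9 with several were 2838 bp to 8243 bp wide with a median of 3772 bp. Fold enrichment overlapped between these groups, with medians of 103 and 98.8.

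Summit distances were short where 1 STAT6 peak lay in a SOX4 peak. In those 21 pairs the summits were 1 bp to 482 bp apart with a median of 28 bp. Over all 44 pairs the median was 74.5 bp, close to the 73 bp over the whole lists. Summits lay within 200 bp in 26 of the 44 pairs (59.1%), against 62.7% of the 850 pairs of the whole lists. Per channel the median was 27 bp at TRPV4, 171 bp at TRPV1 and 572 bp at TRPA1. These medians also reflect how many STAT6 peaks lay in a SOX4 peak, which has 1 summit. In SOX4 peaks with 1 STAT6 peak, the medians were 27 bp at TRPV4, 17 bp at TRPV1 and 48 bp at TRPA1.

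**Figure D3:**
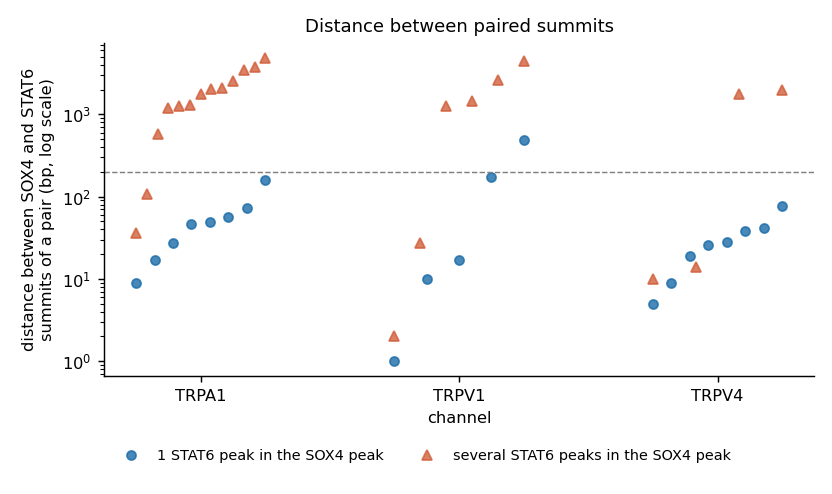
Distance in bp (log scale) between the SOX4 and STAT6 summits of the 44 overlapping pairs at TRPA1, TRPV1 and TRPV4, each point a pair, sorted within a channel, with a dashed line at 200 bp. Circles, pairs in SOX4 peaks with 1 STAT6 peak, reach 482 bp at most. Triangles, pairs in SOX4 peaks with several, reach 4878 bp.

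The 4 unpaired SOX4 peaks were among the 5 with the lowest fold enrichment at the channels. They were the peaks of TRPV3 and TRPV2, the TRPV1 peak from 3582644 to 3584097 with a fold enrichment of 49.6, and the TRPA1 peak from 72064762 to 72066285 with 65.3. The other one of these 5, at TRPV1 with a SOX4 fold enrichment of 63.7, held the STAT6 peak with the lowest fold enrichment of all 44, 4.87. The −log10 q of that STAT6 peak was 5.53, which passes a minimum of 5, whereas its fold enrichment does not. With a fold enrichment of at least 5, 43 STAT6 peaks were left, and 29 of 33 SOX4 peaks were paired.

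Among the 32 SOX4 peaks of TRPA1, TRPV1 and TRPV4, fold enrichment was 49.6 to 166 with a median of 101, and 31 of them reached 50. The whole SOX4 list had a median of 5.88, and 586 of its peaks reached 50. SOX4 peaks of the list that overlapped a STAT6 peak had a median of 95.5 and the others 5.22, so the channel peaks were about as high as the paired peaks of the whole list, which include them. For STAT6 the 44 channel peaks had a median of 9.49 against 7.27 for the list and 8.54 for the STAT6 peaks of the list that overlapped a SOX4 peak, and the range from 4.87 to 20.04 lay inside that of the list. The SOX4 and STAT6 folds are on scales of different libraries and are not compared with each other. Several STAT6 peaks carried exactly the same fold value, such as 14.2 at both TRPA1 and TRPV4. Of the 44, 25 (56.8%) shared their value with another STAT6 peak of the list, so neighbouring ranks are often ties. In the whole STAT6 list, 42.2% of peaks shared a value. For SOX4, 2 of the 34 channel peaks shared a value, against 57.9% of the list.

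**Figure D4:**
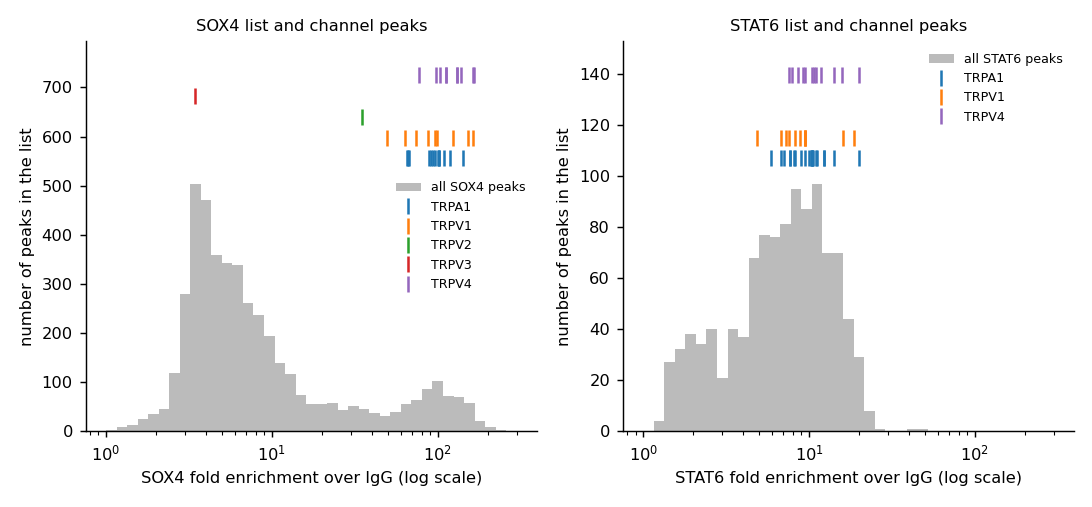
Fold enrichment over IgG (log scale) of all SOX4 peaks (left) and all STAT6 peaks (right) as grey histograms, with the peaks of each channel as vertical ticks above, whose height has no meaning. The SOX4 ticks of TRPA1, TRPV1 and TRPV4 sit in the upper mode of the list, from 49.6 to 166, with TRPV2 at 35.2 and TRPV3 at 3.46 below, and the STAT6 ticks spread from 4.87 to 20.04.

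TRPA1, TRPV1 and TRPV4 were ranked by peak number among genes that both lists marked, as a description of channels picked with these counts known. Gene length was not taken into account. Of the 206 such protein-coding genes, which had a median of 1.5 SOX4 and 2 STAT6 peaks, TRPA1 came 9th by SOX4 and 7th by STAT6 peaks. TRPV4 came 14th and 11th, and TRPV1 17th and 16th, with some places shared by genes of equal count. In all, the channels held 0.753% of the SOX4 list and 4.08% of the STAT6 list.

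Other channel families were compared by the same rule. Of 19 further TRP channels of the canonical, melastatin, mucolipin and polycystin branches, 5 held a SOX4 peak, 0 held a STAT6 peak and none held both. The SOX4 peaks there, at TRPC4, TRPM1, TRPM3, TRPM4 and MCOLN2, had highest fold enrichments from 2.62 to 12.2 and covered at most 2.19% of a window. Peaks of both lists were found at channels of other structure, among them channels of sensory nerves. They lay at 3 of 7 P2X receptors, which open to ATP, 4 of 5 acid-sensing channels and 6 of 15 two-pore potassium channels. Within these families the highest SOX4 fold enrichment of a gene ranged from 69.9 at KCNK15 to 212 at P2RX2. Of 8 other genes of sensory nerve endings, 3 held a SOX4 peak and only TAC1, the gene of substance P, held both, with 2 SOX4 and 4 STAT6 peaks. Among all protein-coding genes, 6.34% had a SOX4 peak and 1.03% had both. The lists were chosen with earlier results of these data known. Gene length was not taken into account, although it differed widely, with 3613 bp at P2RX2 and 1143682 bp at ASIC2. With so few genes in a list, these counts are a description and the differences were not tested.

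**Figure D5:**
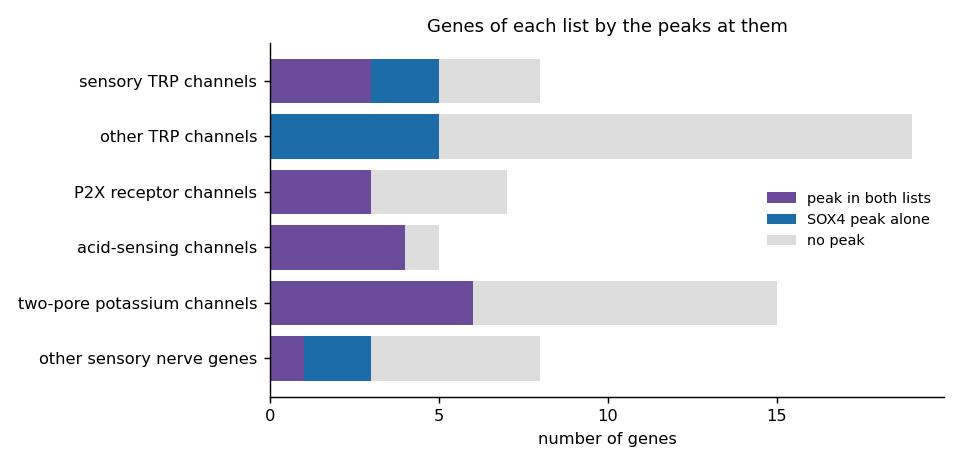
Number of genes in each list with a peak in both lists, with a SOX4 peak alone and with no peak, counting peaks over the gene and 1000 bp on either side. The sensory TRP channels have 3 of 8 with both, the other TRP channels 0 of 19, and the P2X, acid-sensing and two-pore potassium channels 3 of 7, 4 of 5 and 6 of 15.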

How the data were processed

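The deposited files were the SOX4 and STAT6 peak lists of Hep3B cells, 1 library per antibody, each called by the authors against the IgG library. No IgG peak list was used here. The submitters' processing notes name BWA, Partek and the build hg38, while versions, the peak caller and its threshold are not given in the sources used here. For each peak the authors deposited a fold enrichment over IgG (a ratio), −log10 p and −log10 q values and a display score, which was not used. The lowest deposited −log10 q values were 1.31 and 1.35. Total reads per library are unknown.

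Positions are 1-based. Gene positions came from a RefSeq table of GRCh38.p14, which holds no exons, so exons and introns were not distinguished. All 8 channels matched by symbol. Shares of peaks carry Wilson 95% intervals for counting error alone. The counting was tested on simulated data. For every channel with peaks the highest peak and the closest pair are named, and otherwise the nearest peaks. The channels, comparison lists and measures were chosen with earlier results of these data known. Alternatives were other margins, minimum q and fold, merging within 200 bp, and other definitions of pairing. Computations used Python 3.11.15, numpy 2.4.6, pandas 2.3.3, scipy 1.17.1 and matplotlib 3.10.9.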

Additional observations from a re-analysis of the deposited data

How the results depend on the processing

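For 11 results there were 49 alternative values. Against the reported value, 44 differed by less than its Wilson interval (shares) or a factor of 1.5 (other values), and 5 moved further. Pairing of STAT6 peaks fell from 100% to 15.9% if 50% of each peak had to overlap and to 59.1% if summits had to lie within 200 bp. Of the overlapping pairs of the whole lists, 62.7% had summits within 200 bp. The share of paired SOX4 peaks, 88.2%, was 20.6% under the first of these rules, which follows from the greater width of SOX4 peaks. With −log10 q in place of fold, the medians were 1011 for SOX4 and 21.1 for STAT6, which is another scale. The number of channels with a peak in both lists was 3 in every alternative run. The SOX4 peak of TRPV3 is the one that a −log10 q or fold enrichment of at least 5 removes. No paired analysis was possible because SOX4 and STAT6 were each profiled in a single library.

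Without replicates, no spread between libraries can be given for any count or fold enrichment. IgG signal, reads, mappability and exon positions were not analysed here.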
